A study of Macaca mulatta with 36 samples.

Results

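IFIH1 and DDX60 code for helicases that take part in sensing viral RNA, and the array carries 3 probe sets for them. They were chosen by name, as all probe sets whose single gene symbol is IFIH1 or DDX60. IFIH1 has 1 probe set, MmugDNA.36297.1.S1_at, and DDX60 has 2, MmugDNA.27193.1.S1_at and MmugDNA.23619.1.S1_at. They are 2 of 14132 named genes and 3 of the 52865 probe sets of the array, of which 24969 have a single symbol. The DDX60 probe sets are called 27193 and 23619 below, after the second field of their IDs. Total RNA of the hippocampus was measured in 18 rhesus macaques, all male, on 36 Affymetrix arrays, 2 for each animal. Simian immunodeficiency virus encephalitis (SIVE), an inflammation of the brain in infected macaques, was recorded in 9 animals aged 2 to 6 years, and 9 uninfected animals aged 3 to 8 years were the controls. An anti-CD8 treatment, which in macaques is used to deplete CD8 T cells, is labelled for 4 SIVE animals, all 6 years old, and for 2 controls. The labels give no such treatment for 5 SIVE animals and 7 controls. No infected animals without encephalitis were measured, so infection and encephalitis cannot be told apart. The virus strain and the time after infection are not given in the sources used here.

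IFIH1, also called MDA5, binds long double-stranded RNA in the cytosol and belongs to the RIG-I-like receptors with RIGI and DHX58. IFIH1 and RIGI carry caspase recruitment domains and signal through the mitochondrial adaptor MAVS to the transcription factors IRF3, IRF7 and NF-kB, which switch on type I interferon. DDX60 is a large helicase related to the Ski2 RNA helicases of the exosome pathway, and has been reported to promote signalling by RIG-I-like receptors. IFIH1, RIGI, DHX58 and DDX60 are all known as interferon-induced genes, so the sensors are both upstream and downstream of interferon.

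The deposited values are log2 signals, and the array medians lay between 5.59 and 5.75. Duplicate arrays of an animal were averaged, and their correlation over all probe sets was 0.976 in Control 9 and at least 0.992 in the other 17 animals. SIVE 2, SIVE 3 and Control 8, all labelled anti-CD8, had a higher 3′ minus 5′ signal of the control transcripts, a sign of shortened RNA or copies, at 0.955 to 1.45 against 0.104 to 0.466 (log2) in the other 15. Of 52707 probe sets tested by limma, 4.92% passed an adjusted p of 0.05 in SIVE against control, 3.63% higher and 1.3% lower in SIVE.

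IFIH1 signal was low in every control and high in every animal with SIVE. Its log2 signal in the 9 controls was 4.45 at the lowest, 5.21 at the median and 5.43 at the highest. In the 9 SIVE animals it was 8.33 at the lowest, 9.22 at the median and 9.57 at the highest. The groups did not overlap, and the lowest SIVE animal stood 2.90 above the highest control. Of all probe sets tested, 1.2% had every SIVE animal above every control. The mean rose from 5.03 ± 0.35 (SD, n = 9) to 9.09 ± 0.44 (n = 9), a difference of 4.07 ± 0.17 (SE, log2), which is 16.8-fold (limma adjusted p = 7.0e-12). In RNA from whole tissue, more cells of a type and more RNA per cell cannot be told apart.

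DDX60 rose at 1 of its 2 probe sets, and the other did not pass. Probe set 27193 was at 3.11, 3.39 and 3.57 (lowest, median and highest log2 signal) in the controls. In SIVE it was at 6.59, 7.46 and 8.16. The groups were 3.02 apart at their nearest animals. Every SIVE animal lay above every control, as at 1.2% of all probe sets tested. The mean rose from 3.39 ± 0.14 (SD, n = 9) to 7.43 ± 0.48 (n = 9), a difference of 4.04 ± 0.16 (SE, log2), or 16.4-fold (limma adjusted p = 1.2e-12).

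Probe set 23619 was bright in both groups and did not separate them. Its log2 signal was 9.90, 10.08 and 10.20 (lowest, median and highest) in the controls and 9.97, 10.11 and 10.35 in SIVE. The ranges overlap over most of their length. The means were 10.08 ± 0.11 (SD, n = 9) and 10.11 ± 0.13 (n = 9), and the difference of 0.03 had a 95% interval of -0.10 to 0.15 (log2, limma adjusted p = 0.828). A change of more than 0.15 (log2) at this probe set therefore lies outside the interval.

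**Figure D1:**
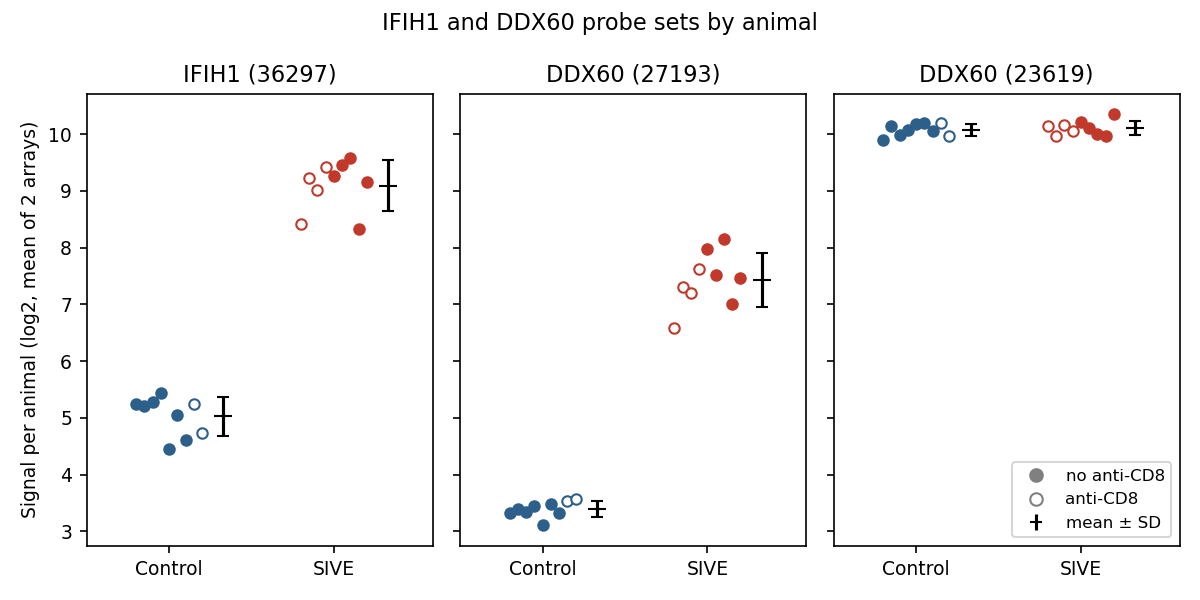
Log2 signal of the 3 probe sets in each of the 9 control and 9 SIVE animals (mean of 2 arrays), with open points for anti-CD8 animals and bars for the mean ± SD. All SIVE animals lie above all controls for IFIH1 and for DDX60 probe set 27193, and the groups overlap for DDX60 probe set 23619, at means of 10.08 and 10.11.

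The changes of the probe sets were compared within animals, with 3 pairs tested by exact two-sided permutation over the 18 animals. The measured change of IFIH1 was larger than that of DDX60 probe set 27193 by 0.03 (log2), with a 95% interval of -0.25 to 0.32 (exact permutation p = 0.814, adjusted over the 3 pairs p = 0.814). The control mean of probe set 27193, at 3.39, lay below 3.68, the control median of the reporter sets, which have no macaque transcript to read. Its change may therefore be understated. The interval covers the spread between animals only and does not bound how far the changes of the transcripts differ. IFIH1 changed by 4.04 more than DDX60 probe set 23619, and DDX60 probe set 27193 by 4.01 more than 23619. Both of these had an exact permutation p of 4.11e-05, the smallest that 48620 arrangements can give, and an adjusted p of 6.17e-05. The 2 probe sets that carry the DDX60 symbol thus changed unequally by more than the spread between animals. In the order of all 52707 differences, from the highest down, IFIH1 was at place 18 and DDX60 probe set 27193 at place 19, among the 0.0379% of probe sets that rose by at least 4 and passed limma's threshold.

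DDX60 is one of 6375 genes with several probe sets. Of these, 170 had a probe set that rose by at least 1 (log2) and passed limma's threshold. For 58 of the 170 every probe set rose, and for 37 (21.8%), DDX60 among them, the brightest probe set did not pass. DDX60's probe sets lay 4.01 apart in their differences, against a median of 0.15 over the 6375 genes, and 4 genes had a wider spread. A gene-level value for DDX60 therefore follows the choice of probe set. It is 0.03 (log2) from the brightest, 2.03 from the mean of both (limma adjusted p = 1.84e-12) and 4.04 from the one that varies most over the animals.

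The control levels of the rising probe sets were dim. DDX60 probe set 27193 had a mean control signal above 7.48% of the probe sets tested and above 21 of 59 reporter gene probe sets, which have no macaque transcript to read and had a median of 3.68 in controls. Its control signal thus lay within the range of sets without a target. The IFIH1 control mean exceeded 37.3% of probe sets and 54 of the 59 reporter sets. A fold against a signal this dim can understate the change, so 16.4-fold and 16.8-fold may both be too small. In SIVE the IFIH1 mean exceeded 92.3% of probe sets and that of DDX60 probe set 27193 76.6%.

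Duplicate arrays show how far single animals can be told apart. For IFIH1 the SD of duplicate arrays was 0.073 (log2) in SIVE, where animal means had an SD of 0.44. In controls the duplicate SD was 0.38 and the SD of the animal means 0.35, so the order of the controls is not resolved. Control 9 had the widest pair for IFIH1, at 5.24 and 4.21. Probe set 27193 had a duplicate SD of 0.18 in SIVE and 0.22 in controls, and probe set 23619 of 0.074 and 0.063. SIVE 5 had the widest SIVE pair for probe set 27193, at 7.69 and 8.27.

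Among the animals with SIVE, those with high IFIH1 also had high DDX60 at probe set 27193. SIVE 7 was the highest for both, at 9.57 for IFIH1 and 8.16 for DDX60. SIVE 1 and SIVE 8 were the lowest pair for both genes, with IFIH1 at 8.41 and 8.33 and DDX60 at 6.59 and 7.01. In between, SIVE 5 was at place 4 for IFIH1 and place 2 for DDX60, and SIVE 6 at places 2 and 4. Over the 9 SIVE animals Pearson's r was 0.84 (exact permutation p = 0.00427) and Spearman's rho 0.90 (exact permutation p = 0.00203). Adjusted over the 12 relations computed in both groups, these were p = 0.0513 and p = 0.0243, so the rank relation passed the threshold of 0.05 and the linear one did not. Without SIVE 1 and SIVE 8, the animals farthest from the median of IFIH1, r was 0.69. In the 9 controls r was 0.44 (exact permutation p = 0.243, adjusted p = 0.952), over values whose order the duplicates do not resolve, and -0.59 without the 2 animals farthest from the median of IFIH1.

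**Figure D2:**
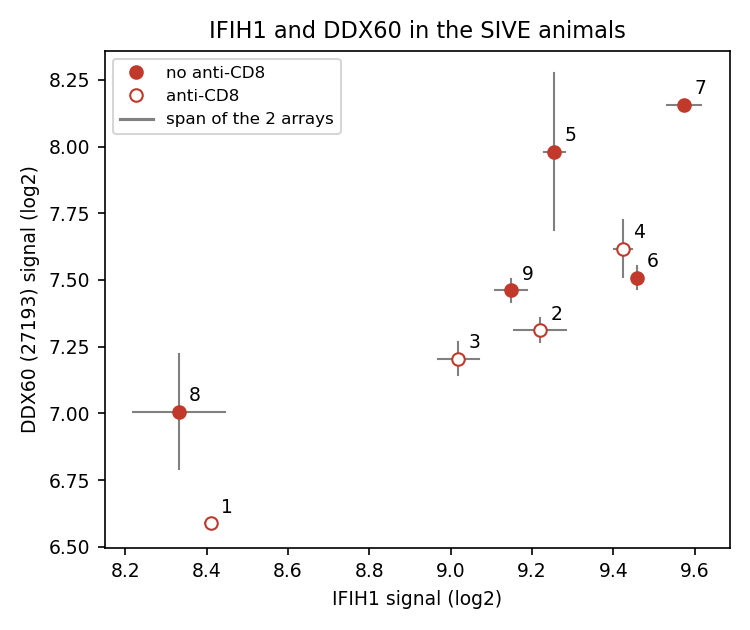
Log2 signal of DDX60 probe set 27193 (vertical) against IFIH1 (horizontal) in the 9 SIVE animals, numbered by animal, with grey lines for the span of the 2 arrays and open points for anti-CD8 animals. The points run from SIVE 1 and SIVE 8 at the lower left to SIVE 7 at the upper right, with r = 0.84.

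Probe set 23619 did not share this order. Its r with IFIH1 over the SIVE animals was 0.052 (exact permutation p = 0.897, adjusted p = 0.952) and with probe set 27193 0.024 (exact permutation p = 0.952, adjusted p = 0.952). Without the 2 animals farthest from the median of the first-named measure, IFIH1 or probe set 27193, r was -0.52 and 0.44, so neither value is stable over 9 animals. Its highest SIVE animal was SIVE 9, at 10.35, and its lowest SIVE 2, at 9.97. None of the 3 probe sets had a relation with the 3′ minus 5′ signal that passed, with r between -0.11 and 0.18 in SIVE and between 0.29 and 0.32 in controls (6 relations, smallest exact permutation p by Pearson 0.348, adjusted p = 0.952). Without the 2 animals farthest from the median of that signal, r was 0.36 to 0.61 in SIVE and -0.58 to 0.36 in controls. Without the 3 animals of high 3′ minus 5′ signal the SIVE difference was 4.09 for IFIH1, 4.10 for DDX60 probe set 27193 and 0.06 for 23619.

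Anti-CD8 treatment divides both groups. Among the 4 treated SIVE animals IFIH1 was at 8.41, 9.02, 9.22 and 9.42, and among the 5 untreated ones at 8.33, 9.15, 9.26, 9.46 and 9.57. The treated and untreated animals overlapped. IFIH1 was higher in SIVE by 4.12 ± 0.23 (SE, log2; limma adjusted p = 2.89e-09) without anti-CD8, where 3.13% of probe sets passed, 2.34% higher and 0.791% lower. With anti-CD8 it was higher by 4.03 ± 0.34 (limma adjusted p = 2.27e-06), where 1.05% passed, 0.844% higher and 0.209% lower. The difference between these effects was -0.09 with a 95% interval of -0.94 to 0.77 (limma adjusted p = 0.99996), wide because only 2 controls were treated.

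DDX60 probe set 27193 was at 6.59, 7.21, 7.31 and 7.62 in the treated SIVE animals and at 7.01, 7.46, 7.51, 7.98 and 8.16 in the untreated ones. The treated animals lay lower on average, with overlap. Its mean was 7.18 ± 0.43 (SD, n = 4) with anti-CD8 and 7.62 ± 0.46 (n = 5) without, a difference of -0.44 ± 0.20 (SE, limma adjusted p = 0.32). The 2 treated controls, at 3.53 and 3.57, lay above the 7 untreated ones, at 3.11 to 3.47, but the difference of 0.20 did not pass (limma adjusted p = 0.649). The SIVE difference was 4.28 ± 0.18 without anti-CD8 (limma adjusted p = 8.14e-11) and 3.63 ± 0.26 with it (limma adjusted p = 4.06e-07). These effects differed by -0.65 with a 95% interval of -1.31 to 0.02 (limma p = 0.0567 unadjusted, adjusted p = 0.99996). Over all probe sets limma called 0 for a difference between the effects (0%), with 1481 at an unadjusted p under 0.05, and 1 (0.0019%) for anti-CD8 within SIVE. The treated SIVE animals are all 6 years old and the untreated ones 2 to 5. Age and treatment therefore cannot be told apart in SIVE. SIVE 2, SIVE 3 and Control 8, the animals of high 3′ minus 5′ signal, are all treated, so that signal is also partly mixed with treatment. With that signal as a covariate, the effects for probe set 27193 differed by -0.63, which did not pass. Probe set 23619 showed a SIVE difference of 0.05 without anti-CD8 and -0.003 with it, and neither passed (limma adjusted p = 0.757 and 0.995).

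**Figure D3:**
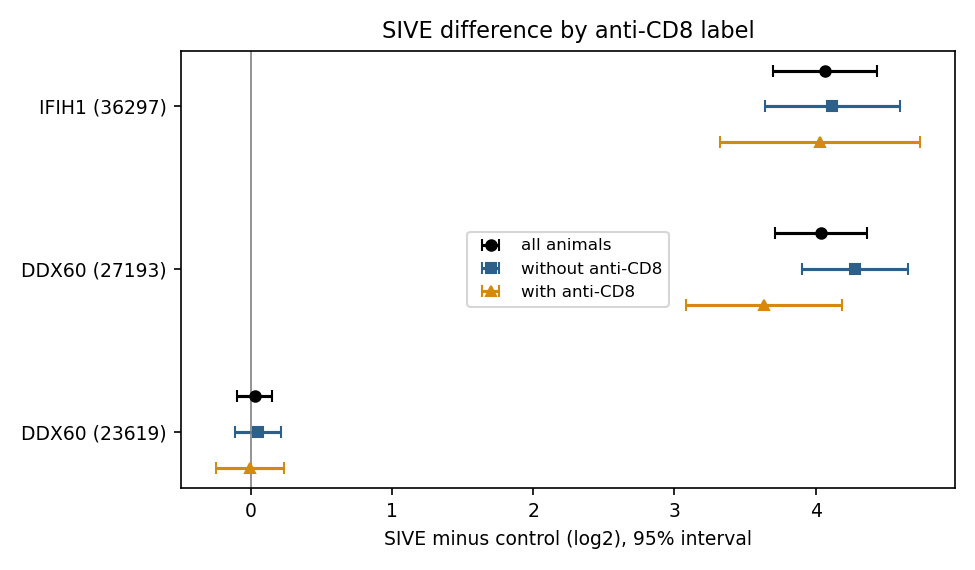
SIVE minus control difference (log2) of each probe set with its 95% interval, over all animals (circles), without anti-CD8 (squares) and with anti-CD8 (triangles). The intervals of IFIH1 and DDX60 probe set 27193 lie far above 0 in all 3 cases, and those of DDX60 probe set 23619 hold 0.

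The other RIG-I-like receptors did not rise evenly. RIGI, the sensor of RNA with a free 5′ triphosphate, was at 4.09, 4.50 and 5.16 (lowest, median and highest) in controls and at 5.50, 7.67 and 7.97 in SIVE. The groups did not overlap, and 1.2% of all probe sets tested had every SIVE animal above every control. SIVE 2, at 5.50, and SIVE 3, at 5.57, stood well below the other SIVE animals, which lay at 6.60 to 7.97. These are the SIVE animals of high 3′ minus 5′ signal, and the part of that signal in RIGI's values was not tested. RIGI rose by 2.60 ± 0.32 (SE, log2; limma adjusted p = 2.05e-05), and by 3.01 ± 0.19 without SIVE 2, SIVE 3 and Control 8. DHX58, or LGP2, which lacks the caspase recruitment domains and modulates the other receptors, was at 8.85, 9.02 and 9.40 in SIVE and 9.10, 9.26 and 9.53 in controls. It differed by -0.22 ± 0.08 (SE) and did not pass (limma adjusted p = 0.137). DDX60L, the close relative of DDX60, was at 6.48, 6.66 and 7.01 in SIVE and 6.31, 6.72 and 7.13 in controls, a difference of -0.05 ± 0.10 (SE; limma adjusted p = 0.804). RIGI, DHX58 and DDX60L each have only 1 probe set, so a disagreement like that of the DDX60 probe sets could not be looked for.

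Partners of the receptors followed their own courses. TRIM25, a ubiquitin ligase that acts on RIGI, rose at 3 of its 4 probe sets, by 1.92 ± 0.09 (SE, log2), 1.64 ± 0.10 and 0.75 ± 0.11, while the remaining one differed by 0.12. TRIM4, another ligase of RIGI, has 3 probe sets, and the brightest rose by 1.21 ± 0.19 (SE) while those at 0.31 and 0.10 did not pass. ZCCHC3, a co-receptor that binds RNA, differed by 0.04, PRKRA, or PACT, by -0.01, the ligase MEX3C by 0.01 and TRIM65, a ligase of IFIH1, by -0.01, and none of these 4 passed. TRIM65 was at 3.15 in both groups, below the reporter sets' medians of 3.55 in SIVE and 3.68 in controls. Its small difference therefore does not show whether the TRIM65 transcript changed. With 1 brightest probe set for each gene, 4 of the 11 measured receptors and partners rose and 0 fell by limma, with a median of 0.03. Over all 14132 genes the same rule gave 809 higher (5.72%), 213 lower (1.51%) and a median of -0.02. DDX60 counts among the 7 that did not pass, since its brightest probe set is 23619. The 4 that rose were IFIH1 itself, RIGI, TRIM25 and TRIM4, so IFIH1 and DDX60 are both part of these counts.

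**Figure D4:**
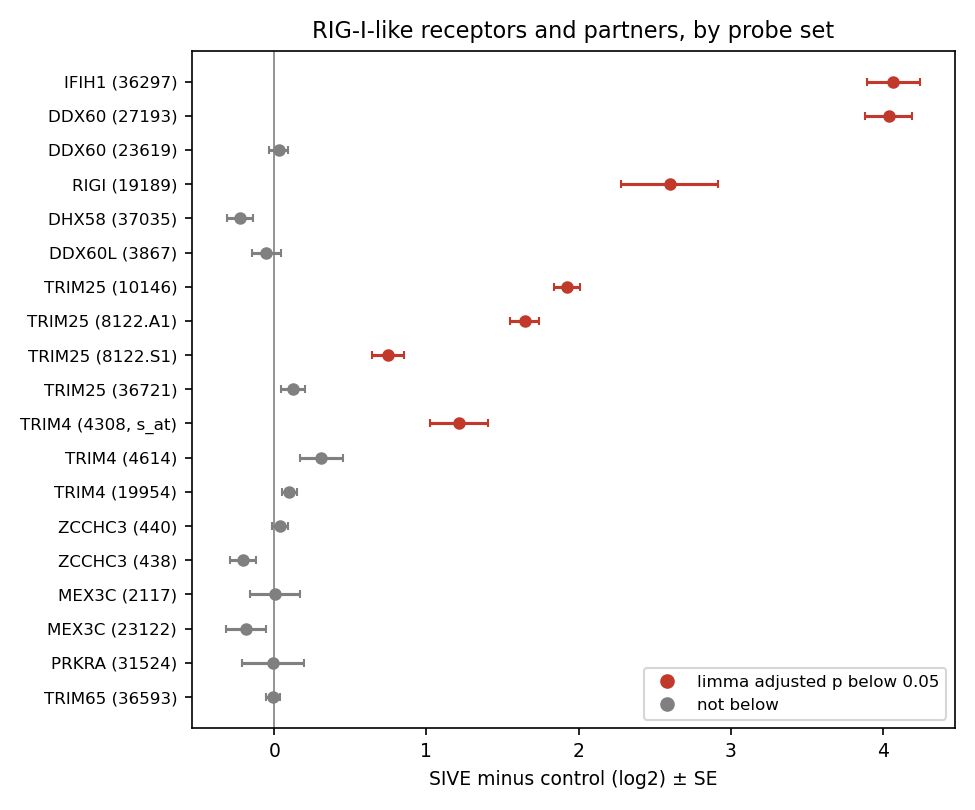
SIVE minus control difference (log2) ± SE for each of the 19 probe sets of 11 RIG-I-like receptors and partners, in red where limma's adjusted p was below 0.05; numbers in brackets come from the probe set IDs. IFIH1 at 4.07 and DDX60 probe set 27193 at 4.04 lie farthest to the right, RIGI follows at 2.60, and DHX58, DDX60L and DDX60 probe set 23619 lie near 0.

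Downstream of the sensors, 4 of 22 measured members of the MAVS pathway rose and 0 fell by limma (18.2% higher, against 5.72% of all genes), with a median of 0.04. They were IFIT3, a bridge between MAVS and the kinase TBK1 and itself induced by interferon, at 3.88 ± 0.09 (SE, log2), IRF7 at 1.61 ± 0.21, the DNA-sensing adaptor STING1 at 0.98 ± 0.14 and NFKB1 at 0.56 ± 0.10. MAVS itself differed by -0.29 ± 0.19 (limma adjusted p = 0.378), TBK1 by 0.36 ± 0.15 (adjusted p = 0.177) and IRF3 by 0.05 ± 0.15 (adjusted p = 0.875). IFNB1, the interferon that this pathway induces, was at 3.71 in SIVE and 3.72 in controls (limma adjusted p = 0.933), near the median of the reporter sets. MAVS, TBK1, IRF3 and IFNB1 were singled out for their place in the pathway, after their values were seen.

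Of 23 measured inhibitors of RNA sensing 2 rose and 1 fell by limma, and the median was 0.02. These shares, 8.70% and 4.35%, stand beside 5.72% higher and 1.51% lower over all genes. TNFAIP3 did not pass at its brightest probe set and was higher at 2 others. The count of 2 higher became 3 with the mean of all probe sets of a gene, and 3 without SIVE 2, SIVE 3 and Control 8. ISG15, which is also conjugated to IFIH1 as an activating mark, rose by 5.37 ± 0.19 (SE, log2) and NLRC5, better known as the activator of MHC class I genes, by 2.96 ± 0.20. The phosphatase DUSP1 fell by 0.92 ± 0.22, and ATG5, an autophagy protein with the next smallest p of the list, differed by 0.21 ± 0.08 (adjusted p = 0.119).

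Of 19 other sensors and effectors of nucleic acids 10 were higher (52.6%, against 5.72% of all genes) and 0 lower by limma, with a median of 0.51. OAS1, IFIT2 and AIM2 did not pass at their brightest probe sets. They were higher at 3, 2 and 2 others, with differences of up to 2.77, 3.94 and 1.35 (log2). With the mean of all probe sets of a gene 13 of the list were higher. IFIT1, which binds foreign RNA caps, rose by 3.64 ± 0.17 (SE, log2) and OAS2 and OAS3, which make the activator of RNase L, by 3.49 ± 0.25 and 2.74 ± 0.17. IFI16, a DNA sensor, rose by 2.16 ± 0.16. Of 9 genes that carry or regulate the interferon signal 3 rose (33.3%) and 0 fell by limma, with a median of 0.36. They were IRF1 at 2.14 ± 0.19, the receptor chain IFNAR2 at 1.21 ± 0.16 and STAT2 at 0.95 ± 0.14. The brightest of the 3 JAK2 probe sets, at 0.68 ± 0.21, did not pass (limma adjusted p = 0.069), but 1 other JAK2 probe set was higher. IRF8 did not pass at its brightest probe set either and was higher at 2 others. The count of 3 became 5 without SIVE 2, SIVE 3 and Control 8, and 5 with the mean of all probe sets of a gene.

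The exosome and the Ski complex, the RNA decay machinery to whose helicases DDX60 is related, had 1 of 14 members higher (7.14%, near the 5.72% of all genes) and 0 lower by limma, with a median of 0.14. EXOSC1, an exosome subunit, rose by 0.26 ± 0.07 (SE, log2; adjusted p = 0.039). SKIC2, the Ski helicase, differed by -0.01 ± 0.10 (adjusted p = 0.976), and was named for its kinship to DDX60 after its value was seen. The next smallest p-values of the list were those of EXOSC8 at 0.23 ± 0.08, EXOSC9 at 0.14 ± 0.06 and DIS3, the catalytic subunit, at 0.24 ± 0.11, and none passed.

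The DEAD and DEAH box helicases were taken as all genes whose symbol begins with DDX or DHX and a digit. IFIH1 and RIGI, which rose by 4.07 and 2.60 (log2), have other symbols and were not counted. Among the genes chosen this way the rise of DDX60 probe set 27193 stood at the top. These 39 genes have 78 probe sets, of which 8 (10.3%, against 3.63% of all probe sets) from 5 genes were higher and 0 lower in SIVE by limma. After DDX60 came DHX8, a splicing helicase, with 1.72 ± 0.17 (SE, log2) and 1.25 ± 0.15 at its 2 higher probe sets, while its others, at 0.21 and -0.06, did not pass. DDX10 was higher by 0.98, 0.55 and 0.46 at 3 dim probe sets and by 0.05 at its bright one, which did not pass. DHX29, a translation factor, rose by 0.45 ± 0.09 and DDX47, a ribosome biogenesis factor, by 0.34 ± 0.07. The other 70 probe sets lay between -0.24 and 0.31. By the brightest probe set of each gene 3 of the 39 (7.69%, near the 5.72% of all genes), DHX8, DHX29 and DDX47, rose and 0 fell by limma, with a median of 0.07.

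**Figure D5:**
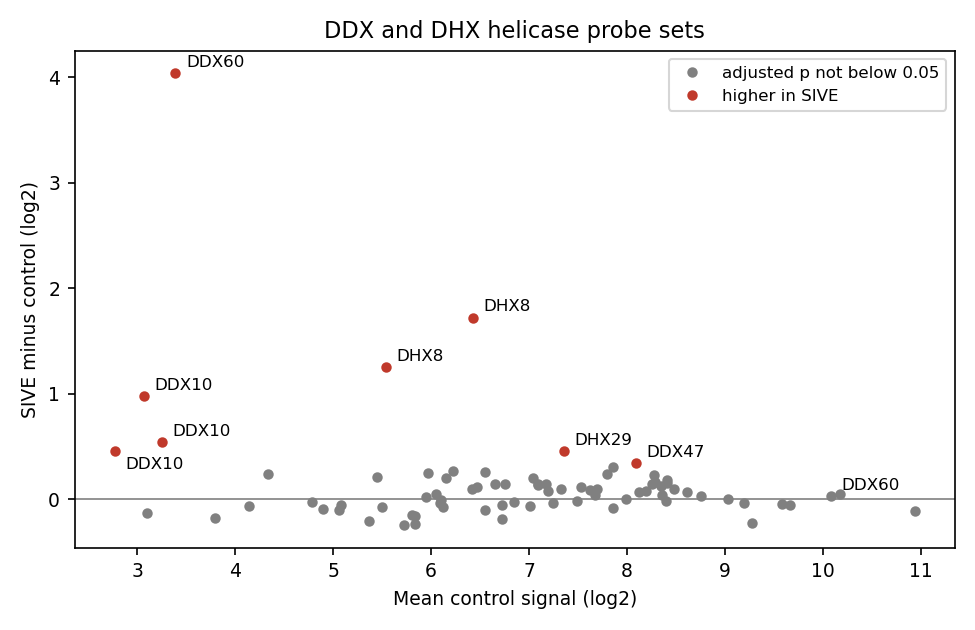
SIVE minus control difference (log2, vertical) against mean control signal (log2, horizontal) for 78 probe sets of 39 DDX and DHX helicase genes, in red where higher by limma's adjusted p. DDX60 appears at 4.04 among the dimmest probe sets and at 0.03 among the brightest, and the other 7 red points lie at or below 1.72.

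No rise was called at the genes next to IFIH1 and DDX60 on the chromosome. In the RefSeq assembly T2T-MMU8v2.0, FAP and GCG lie on one side of IFIH1 and GCA and KCNH7 on the other. FAP and GCA are the nearest. GCA was at 6.90 in SIVE and 6.58 in controls, a difference of 0.31 ± 0.15 (SE, log2; limma adjusted p = 0.226), and the 5 probe sets of the other 3 differed by -0.13 to 0.04. DDX60 lies between ANXA10 and DDX60L, with SPOCK3 and PALLD beyond. ANXA10 differed by -0.001 and DDX60L by -0.05, and the 7 probe sets of SPOCK3 and PALLD by -0.33 to 0.11. None of these 15 neighbour probe sets passed limma's threshold. GCG, the dimmer FAP probe set, both KCNH7 probe sets and ANXA10 were at 2.89 to 3.59 in SIVE and 2.93 to 3.61 in controls. These levels are near or below the reporter sets' medians of 3.55 and 3.68, so these probe sets say little about their transcripts.

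The genes whose brightest probe set followed IFIH1 most closely over the 9 SIVE animals were TENT5A (r = 0.95), CARINH (0.94), the interferon-induced genes IFI44 (0.94) and SP100 (0.92), and SPIDR (0.92). They were the top of 14131 genes, and with 9 animals such values are a description only. IFI44 rose by 4.45, SP100 by 2.99, CARINH by 2.20 and TENT5A by 1.17 (log2) in SIVE, while SPIDR, at 0.16, did not pass. For DDX60 probe set 27193 they were LPAR6 (r = 0.95), LOC698633 (0.94), MTIF2 (0.94), FZD7 (0.93) and PDE5A (0.92). Of these LPAR6 rose by 0.75 and MTIF2 by 0.31, and the others, at 0.14 to 0.28, did not pass. For probe set 23619, the brightest of DDX60, they were AOAH (r = 0.95), LOC722305 (0.93), SLC15A2 (0.93), MIS18A (0.92) and CCDC77 (0.92), with differences between -0.08 and 0.14 that did not pass.

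Cell type markers moved beside these genes. Of 13 measured macrophage and microglia markers 6 rose (46.2%) and 0 fell by limma. Over all genes 5.72% were higher and 1.51% lower. The rising markers were led by LYZ at 2.71 ± 0.30 (SE, log2), PTPRC at 1.52 ± 0.16 and C1QA at 2.36 ± 0.25, with FCGR3 at 0.61 ± 0.10. The summed signal of the 13 markers was 12.24 to 13.03 (log2) in SIVE and 11.71 to 12.13 in controls, without overlap. Of all single probe sets tested, 1.2% had every SIVE animal above every control. Bright markers weigh most in a summed signal, and C1QA was at 11.03 in SIVE and 8.67 in controls. The 7 markers that did not pass include MRC1 at -0.14 and ITGAM at -0.35, so the sum does not stand for every marker. The microglial markers P2RY12, at -0.44 ± 0.46, and TMEM119, at -0.10 ± 0.11, did not pass. Of 6 astrocyte markers 2 rose (33.3%) and 1 fell (16.7%) by limma. GFAP rose by 0.36 ± 0.08 and VIM by 0.78 ± 0.16, SLC1A2 fell by 0.52 ± 0.11 and SLC1A3 differed by 0.12. The summed signal overlapped, at 14.43 to 14.70 in SIVE and 14.16 to 14.58 in controls. Of 7 endothelial markers 3 rose (42.9%) and 0 fell by limma. PECAM1 rose by 0.83 ± 0.18, CDH5 by 0.52 ± 0.12 and VWF by 0.98 ± 0.24, while TEK, at 0.27, did not pass. The summed signal of 10.14 to 11.22 in SIVE overlapped the 9.84 to 10.87 of controls.

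Neuron markers had 1 of 3 lower by limma (33.3%, against 1.51% of all genes). TUBB3 fell by 0.51 ± 0.12 (SE, log2), and SYT1 and STMN2, at -0.06 and -0.22, did not pass (summed signal 12.73 to 13.32 in SIVE and 12.81 to 13.49 in controls). Oligodendrocyte markers had 1 of 3 lower by limma (33.3%, against 1.51%), MBP by 0.32 ± 0.07. OLIG2 at -0.34 and CNP at 0.06 did not pass (13.41 to 13.86 and 13.59 to 13.85). Of 3 T cell markers 0 passed by limma, CD8A at -0.12, CD8B at -0.10 and CD4 at 0.05 (7.24 to 7.76 and 7.19 to 7.80). The high SYT1, GFAP and MBP signals, all above 12, go with the labelled brain tissue. What part these marker changes have in the rise of IFIH1 and DDX60 was not tested.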

How the data were processed

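The deposited values are log2 signals that the authors made with RMA, per the submitters' processing notes; RMA subtracts background, brings the arrays to one distribution and reduces each probe set to 1 value. Neither the RMA version nor the probe definitions are given in the sources used here. Their scale was read from the values, which run from 2.30 to 14.49. Precision is limited by the number of animals, since arrays hold no counts. Gene symbols came from the platform's annotation: 24969 probe sets have 1 symbol, 361 several and 27535 none. The 99 Affymetrix control and 59 reporter probe sets were left out, and 52707 were tested.

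The 2 arrays of an animal, which the labels call technical replicates, were averaged and counted as 1 replicate. Two-sided tests were run in R 4.3.3 with lmFit and eBayes of limma 3.58.1. The Benjamini-Hochberg adjustment ran over 52707 probe sets, with 0.05 as the threshold. Anti-CD8 comparisons used 1 fit with 4 group means. Exact permutation tests and figures used Python 3.11.15, scipy 1.17.1 and matplotlib 3.10.9. On simulated data the limma fit was tested beforehand. The 3′ minus 5′ signal averages the differences of the control probe sets of GAPDH, ACTB and EEF1A1. A summed signal is the log2 of the sum of linear signals of a list.

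For lists each gene stood for its brightest probe set. Named genes are all receptors and partners, the 4 members of smallest adjusted p in every other list, the helicases with the largest called differences and the 5 genes with the highest r. Other genes were named after their values were seen. The members, lists and rules were chosen with earlier results of these data known.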

Additional observations from a re-analysis of the deposited data

Results flagged for a closer look

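The 11 receptors and partners, with both DDX60 probe sets, were searched for single animals that stood apart in their group of 9, over 24 combinations of probe set and group, of which chance flags about 1 in 20. PRKRA in Control 8 was at 7.41, below the 8.41 to 8.92 (log2) of the other 8 controls. TRIM4 in Control 8 was at 6.88, above the 5.69 to 6.17 of the others. Control 8 is an animal of high 3′ minus 5′ signal, and the part of that signal in these values was not tested. ZCCHC3 in SIVE 6 was at 7.05, below the 7.20 to 7.36 of the other SIVE animals. None of the IFIH1 or DDX60 probe sets had such an animal in either group.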

How the results depend on the processing

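The rises of IFIH1 and DDX60 probe set 27193 passed limma's threshold under every alternative run. Leaving out each of the 18 animals in turn gave 4.00 to 4.16 (log2) for IFIH1, 3.95 to 4.14 for probe set 27193 and -0.00253 to 0.0461 for probe set 23619. The other alternatives were single technical replicates, all 36 arrays with the animal as a random block, another scaling, age, anti-CD8 or 3′ minus 5′ signal as a covariate, limma with trend and robust variance, a test of the brighter probe sets, and leaving out the 3 animals of high 3′ minus 5′ signal or, as an alternative chosen after seeing the data, Control 9. They gave 3.97 to 4.16 for IFIH1 and 3.94 to 4.13 for probe set 27193. Probe set 27193 has no value in the test of brighter probe sets, since its mean is below the median level. Probe set 23619 changed sign to -0.0214 with technical replicate 2 only and did not pass in any alternative. The replicate numbers do not pair the animals: 0 of 9 same-numbered pairs had a correlation over 0.1. With the replicate block the differences were again 4.07, 4.04 and 0.03, with limma adjusted p = 7.91e-07, 2.56e-07 and 0.874, and 1368 probe sets were called against 2595. That count was 5294 with anti-CD8 and 4838 with 3′ minus 5′ signal as a covariate, and 2055 to 3013 without single animals.

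Without single animals the difference of the anti-CD8 effects ran from -0.35 to 0.17 for IFIH1, -0.80 to -0.45 for probe set 27193 and -0.16 to 0.0540 for 23619, and none passed; where 1 treated control is left, it is assumed to vary like the other groups. The unequal change ran from -0.0283 to 0.0807 for IFIH1 against probe set 27193, 3.96 to 4.13 for IFIH1 against 23619 and 3.90 to 4.12 for 27193 against 23619. With the mean of all probe sets of a gene, the members higher were 0 for the exosome and Ski complex, 5 for interferon signalling and 5 for the helicases, and 2 oligodendrocyte markers were lower. Without the 3 animals of high 3′ minus 5′ signal, an alternative added for lists after seeing the data, 5 interferon signalling genes were higher and 2 oligodendrocyte markers lower. The cause was not tested. Dim control signals limit how well low levels are measured.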

Other observations

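Some probe sets are named after a nucleotide accession and were taken, as an assumption, to read simian immunodeficiency virus. The one named for coding sequence 9 had a mean of 9.74 ± 1.27 (SD, n = 9) in SIVE, from 7.53 to 11.22 (log2), against 3.54 ± 0.32 (n = 9) in controls. Over the 9 SIVE animals its level had r = 0.024 with IFIH1 (exact permutation p = 0.951), 0.31 with DDX60 probe set 27193 (p = 0.422) and -0.039 with 23619 (p = 0.921). Spearman's rho was -0.017 (exact permutation p = 0.982), 0.22 (p = 0.581) and -0.067 (p = 0.88). Adjusted over these 3 relations, which were added after the data were seen, each Pearson p was 0.951 and each Spearman p 0.982. Without the 2 animals farthest from the median of the virus signal, r was 0.31, 0.50 and -0.66. With 9 animals, relations of moderate size would not pass these tests.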
